A study of Arabidopsis thaliana with 10 samples.

Results

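The MAP kinase cascade of Arabidopsis was examined in roots as 39 genes in 3 tiers, out of 27826 genes measured. The members were taken by locus code and comprised the 20 MAP kinases MPK1 to MPK20, the 10 MAP kinase kinases MKK1 to MKK10, and 9 MAP kinase kinase kinases, namely MEKK1 and MAPKKK14 to MAPKKK21. Each member matched 1 row of the deposited table and carried a symbol in the reference. That symbol was the name used here, except that MKK1, MPK8 and MPK13 are MEK1, ATMPK8 and ATMPK13 there. The set was chosen by family name and position in the cascade, with log2 differences between these 2 genotypes already known, so the differences of its members are given as a description and support nothing by themselves.

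The arrays came from 2 groups of 5, Col-0 wild type and mcu123, which the labels call an MCU triple knockout. MCU proteins form the pore of the mitochondrial calcium uniporter. The sources used here do not give the alleles behind mcu123. Every sample was RNA from pooled roots of 20-day-old seedlings raised in sterile hydroponics, in both genotypes without a further treatment. Whether the replicates were grown apart is not stated, and every p-value therefore reflects only how these pools varied.

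In a MAP kinase cascade, a MAPKKK phosphorylates an MKK, and the MKK phosphorylates an MPK, which then acts on transcription factors, enzymes and microtubule proteins. In plants the best known chains are MEKK1, MKK1 or MKK2 and MPK4, then MKK4 or MKK5 with MPK3 and MPK6 below immune receptors, and the MAPKKK14 to MAPKKK21 clade with MKK3 and MPK1, MPK2, MPK7 or MPK14. The kinases are switched by phosphorylation, so a transcript level does not measure how active a kinase was. Several genes of the MAPKKK14 to MAPKKK21 clade are themselves transcribed in response to wounding or abscisic acid.

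The values are log2 intensities, and all arrays share 1 distribution, with a lower quartile of 2.05 and a median of 4.30. A level is compared only for the same gene between arrays, since probes differ in brightness from gene to gene. Of the targeted genes, MCU1 measured 4.52 ± 0.23 in the wild-type arrays and 2.87 ± 0.16 in the mcu123 arrays and MCU3 6.12 ± 0.22 and 4.14 ± 0.28 (mean ± SD, n = 5 each), with no overlap between the genotypes. MCU2 was dim in both, at 2.86 ± 0.29 and 2.77 ± 0.27. Without detection calls, levels of different markers cannot show how pure the roots were. Of the 4 photosynthetic shoot markers, RBCS1A ran from 4.31 to 7.98 and CAB1 from 1.16 to 3.60, both highest in mcu123 replicate 5, RCA ran from 4.05 to 4.90 and LHB1B1 from 1.51 to 2.48. The array of mcu123 replicate 3 had the lowest weight in the fit of array quality (0.39).

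No member of the cascade passed the test between genotypes. Over all genes, 12 passed limma's test at an adjusted p of 0.05, which is 0.0431% of the genes, and 0 of the 39 members did, with limma adjusted p-values from 0.21 to 0.999. The count over all genes was 22 without mcu123 replicate 3 and 5 to 7 when any one of wild type replicates 1, 3 and 4 and mcu123 replicates 2, 4 and 5 was left out, and the count of members was 0 each time. At an unadjusted p under 0.05 there were 7 members, all with the lower mean in mcu123. Of all genes 7.46% reached that level, 4.08% with the lower mean in mcu123. The genotypes did not overlap in 2 members, both lower in mcu123. Such a separation was seen in 1.70% of all genes, and in 1.02% with mcu123 lower. Since the members were chosen with this contrast known, nothing is read from these counts. In whole roots, fewer cells of a type and less RNA per cell cannot be told apart.

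In the MAPKKK tier 8 of 9 members had the lower mean in mcu123 and the median log2 difference (mcu123 minus wild type) was -0.44. That median was -0.65 when wild type replicate 5 was left out, -0.29 when wild type replicate 3 was, and -0.16 without the 3 arrays of lowest weight. In that last fit the members went different ways, with MAPKKK14 and MAPKKK15 at -1.04 and -1.41 and MAPKKK18 and MAPKKK19 at -0.14 and -0.16. In the MKK tier 5 of 10 means were lower and the median was 0.03. In the MPK tier 17 of 20 means were lower, with a median of -0.14. Within 0.2 of no difference were 16 of 20 MPK, 8 of 10 MKK and 3 of 9 MAPKKK members, beside 71.3% of all genes. Over all genes 47.3% of means were lower and the median difference was 0.01. The difference between tiers itself was not tested.

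**Figure D1:**
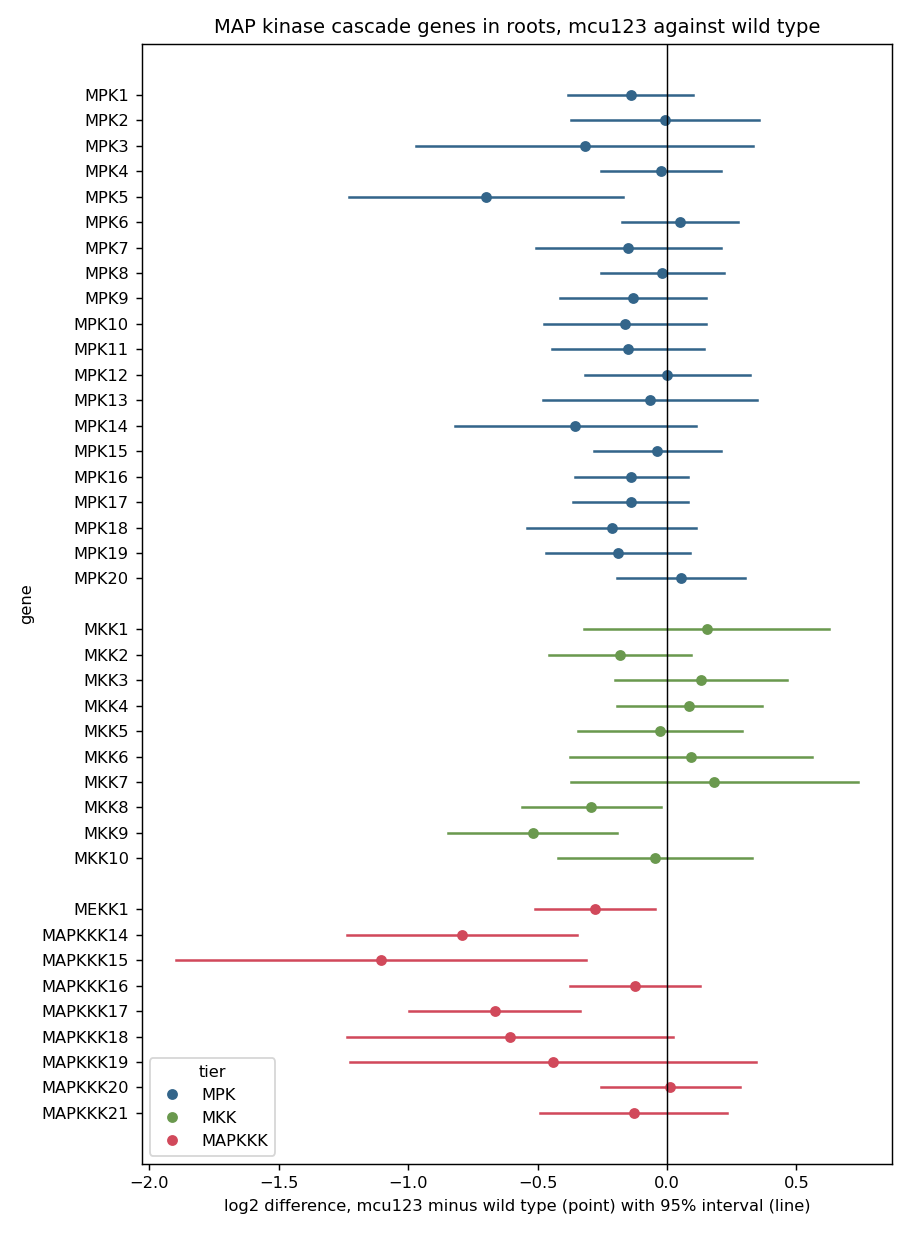
Log2 difference (mcu123 minus wild type, horizontal axis) of each of the 39 members (vertical axis, colored by tier), with points for the estimates and lines for 95% intervals from limma, n = 5 arrays per genotype. The intervals of 7 members lie wholly below 0, those of MPK5, MKK8, MKK9, MEKK1, MAPKKK14, MAPKKK15 and MAPKKK17, and none lies wholly above it.

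At the top of the cascade, the larger differences lay in the MAPKKK14 to MAPKKK21 clade, where 7 of 8 members were lower and the median log2 difference was -0.52. The clade was uneven. MAPKKK16, MAPKKK20 and MAPKKK21 had -0.12, 0.01 and -0.13, smaller in size than the -0.28 of MEKK1. They were also the dimmest of the clade, with wild-type means of 2.31, 1.505 and 3.03, where the other members had at least 4.32. The part of low intensity in their small differences was not tested. MAPKKK15 (AT5G55090) measured 5.50, 5.60, 5.90, 5.19 and 7.47 in wild type replicates 1 to 5 and 5.04, 5.17, 5.14, 4.49 and 4.29 in mcu123 replicates 1 to 5. Every mcu123 array lay below every wild-type array, but the closest pair, 5.17 and 5.19, nearly touched, and wild type replicate 5 stood far above the rest. The log2 difference was -1.10 (SE 0.37, 95% interval -1.90 to -0.31), a mean 2.15-fold lower (limma adjusted p = 0.48). Without wild type replicate 5 it was -0.72, and without the 3 arrays of lowest weight it was -1.41.

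MAPKKK17 (AT2G32510), which with MAPKKK18 and MKK3 forms an abscisic acid-activated chain, had the smallest p of the members. Its wild-type arrays measured 4.96, 4.87, 5.57, 5.17 and 5.21 and its mcu123 arrays 4.31, 4.40, 4.34, 4.83 and 4.57. The genotypes did not overlap, although mcu123 replicate 4 (4.83) came close to wild type replicate 2 (4.87). The means of 5.16 ± 0.27 and 4.49 ± 0.21 gave a log2 difference of -0.67 (SE 0.15, 95% interval -0.996 to -0.335, limma adjusted p = 0.21). With each array left out in turn the difference stayed between -0.75 and -0.56.

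MAPKKK18 (AT1G05100), its close relative in that chain, measured 4.41, 4.57, 4.70, 4.05 and 3.87 in the wild type and 4.65, 2.91, 3.31, 4.11 and 3.58 in mcu123. Here the groups overlapped: mcu123 replicate 1 lay above 4 of the 5 wild-type arrays, and mcu123 replicates 2, 3 and 5 lay below all of them. This gave a log2 difference of -0.61 (SE 0.29, 95% interval -1.24 to 0.02, limma adjusted p = 0.69). It was -0.38 when arrays were weighted and -0.14 when the 3 lowest-weighted arrays were left out.

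MAPKKK14 (AT2G30040), a kinase tied to wound activation of the MKK3 chain, measured 5.03, 5.40, 5.51, 4.94 and 5.31 in the wild-type arrays and 4.41, 4.68, 5.08, 4.02 and 4.03 in the mcu123 arrays. All mcu123 arrays except replicate 3 lay below the lowest wild-type array. MAPKKK14 thus had a log2 difference of -0.79 (SE 0.20, 95% interval -1.24 to -0.35), a mean 1.73-fold lower (limma adjusted p = 0.29). Without mcu123 replicate 3 it was -0.95 and the adjusted p 0.078, the smallest adjusted p that any member reached in any of the fits.

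MAPKKK19 (AT5G67080) measured 4.97, 5.16, 5.35, 4.70 and 3.25 in the wild-type arrays and 4.90, 3.81, 4.18, 4.57 and 3.75 in the mcu123 arrays, so that wild type replicate 5 was the lowest of all 10 arrays. Its log2 difference of -0.44 (SE 0.36) was -0.80 without that array and -0.28 without wild type replicate 3. MAPKKK21 (AT4G36950) measured 3.03 ± 0.23 and 2.90 ± 0.31, and MAPKKK16 (AT4G26890) 2.31 ± 0.09 and 2.19 ± 0.18. MAPKKK20 (AT3G50310) lay below the lower quartile of the arrays in both genotypes, at 1.505 ± 0.16 and 1.52 ± 0.18, and had the single mean of the tier that was not lower.

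MEKK1 (AT4G08500), the kinase above MKK1, MKK2 and MPK4, differed by less but with little spread. It measured 7.08, 7.20, 7.02, 7.01 and 6.95 in the wild type and 6.70, 6.62, 6.98, 6.81 and 6.77 in mcu123. All mcu123 arrays but replicate 3 lay below the lowest wild-type array. The log2 difference was -0.28 (SE 0.11, 95% interval -0.51 to -0.05, limma adjusted p = 0.58). Its relatives MEKK2 (-0.12) and MEKK3 (-0.03), which lie close to it in the reference, had log2 differences nearer to 0.

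**Figure D2:**
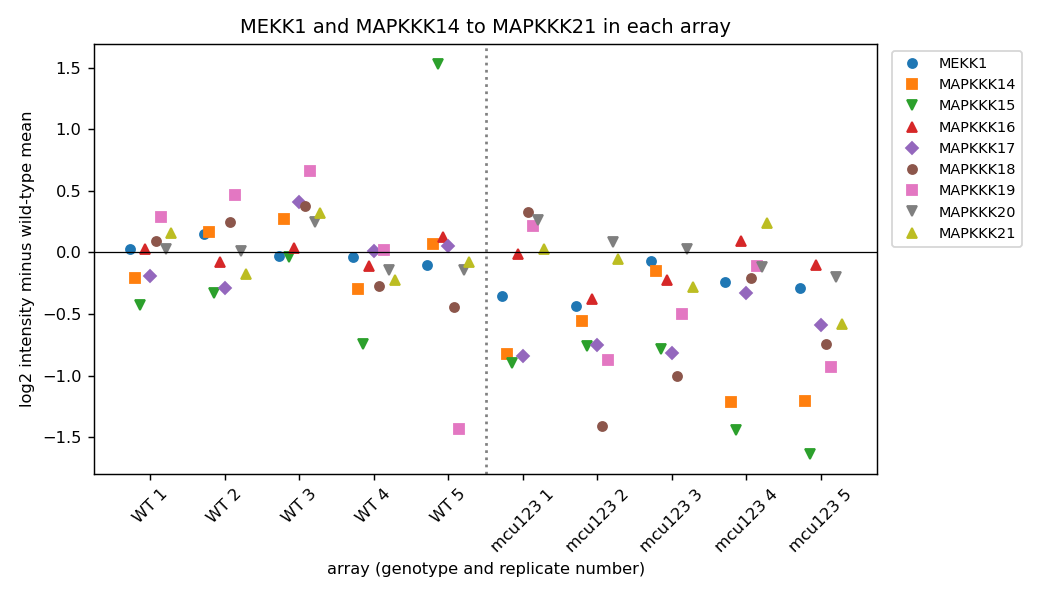
Log2 intensity of MEKK1 and MAPKKK14 to MAPKKK21 minus each gene's wild-type mean (vertical axis) in each of the 10 arrays (horizontal axis, WT for wild type), 1 symbol per gene. In wild type replicate 5 MAPKKK15 lies highest and MAPKKK19 lowest, and most symbols of the mcu123 arrays lie below 0.

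The spread among wild-type arrays, a measure within 1 genotype, was wide for MAPKKK15 (SD 0.89) and MAPKKK19 (SD 0.84). A smaller wild-type SD was found in 99.5% of all genes for the first and in 99.3% for the second. The 2 genes moved in opposite directions in wild type replicate 5. Wild type replicate 3 was the highest wild-type array in 6 of the 9 genes of this tier.

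In the middle tier, MKK9 (AT1G73500), which activates MPK3 and MPK6 and is known for ethylene and camalexin responses, had the largest difference. It measured 6.02, 6.11, 6.48, 6.31 and 6.31 in the wild-type arrays and 6.06, 5.96, 5.48, 5.73 and 5.41 in the mcu123 arrays. The groups overlapped through mcu123 replicate 1 alone, which lay just above wild type replicate 1. The log2 difference was -0.52 (SE 0.15, 95% interval -0.85 to -0.19), a mean 1.43-fold lower (limma adjusted p = 0.40).

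The other MKKs of the same subgroup, group D, were dim. MKK8 (AT3G06230) measured 1.85, 2.06, 1.94, 2.12 and 2.06 in the wild-type arrays and 1.97, 1.89, 1.47, 1.54 and 1.69 in the mcu123 arrays. Its mcu123 replicates 3, 4 and 5 lay below all wild-type arrays, and its log2 difference of -0.29 (SE 0.12, limma adjusted p = 0.63) was measured below the lower quartile of the arrays. MKK7 (AT1G18350), a regulator of polar auxin transport, measured 2.68, 2.13, 2.67, 2.12 and 1.39 in the wild type and 2.19, 2.68, 2.08, 2.94 and 2.03 in mcu123. Its groups overlapped widely, and its log2 difference of 0.18 (SE 0.26) was -0.02 without wild type replicate 5 and 0.30 without wild type replicate 1 or 3. MKK10 lay at 1.90 ± 0.40 and 1.86 ± 0.09.

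The MKKs of the immune and cytokinesis chains differed little. MKK4 and MKK5, which act on MPK3 and MPK6 below immune receptors, had log2 differences of 0.09 (95% interval -0.19 to 0.37) and -0.03 (-0.34 to 0.29). MKK1 and MKK2, the partners of MEKK1, had 0.15 (-0.32 to 0.63) and -0.18 (-0.46 to 0.09). In MKK1 the array of mcu123 replicate 3 measured 5.48, above the 4.83 of the next mcu123 array, and without that array the difference was -0.04. MKK3, the partner of the MAPKKK14 to MAPKKK21 clade, had 0.13 (-0.20 to 0.46) at 5.42 ± 0.13 and 5.55 ± 0.32. MKK6, which acts in cell division, had 0.09 (-0.37 to 0.56), with wild type replicate 3 at 5.21 and the other wild-type arrays at 4.46 or lower. These intervals leave room for differences of up to 0.63 on the log2 scale, so equal levels are not shown.

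At the bottom of the cascade, MPK5 (AT4G11330), a relative of MPK4 in group B, had the largest difference. It measured 5.30, 5.83, 5.39, 5.16 and 4.81 in the wild type and 5.42, 4.63, 4.03, 4.54 and 4.38 in mcu123. The mcu123 replicates 2 to 5 lay below every wild-type array, while replicate 1 lay above all but wild type replicate 2. The means gave a log2 difference of -0.70 (SE 0.24, 95% interval -1.23 to -0.17), a mean 1.62-fold lower (limma adjusted p = 0.51). With each array left out in turn the MPK5 difference lay between -0.90 and -0.56. It was -0.57 when arrays were weighted and -0.39 without the 3 arrays of lowest weight.

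MPK3 (AT3G45640) and MPK6 (AT2G43790), the main immune MAP kinases of group A, differed in their spread. MPK3 measured 9.33, 9.73, 10.02, 9.78 and 8.16 in the wild-type arrays and 9.43, 8.996, 8.69, 9.34 and 8.98 in the mcu123 arrays. Wild type replicate 5 was the lowest of all 10 arrays, and replicates 2, 3 and 4 of the wild type lay above all mcu123 arrays. The log2 difference was -0.32 (SE 0.30, 95% interval -0.97 to 0.33, limma adjusted p = 0.86), and it was -0.63 without wild type replicate 5 and -0.17 without wild type replicate 3.

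MPK6 measured 9.09, 9.004, 8.99, 9.09 and 8.93 in the wild-type arrays and 9.12, 9.01, 8.87, 9.14 and 9.21 in the mcu123 arrays. Its wild-type SD of 0.07 was among the small ones, with 2.22% of all genes below it, whereas 98.6% of genes had a smaller wild-type SD than MPK3. The log2 difference of MPK6 was 0.05 (95% interval -0.17 to 0.27). The remaining gene of group A, MPK10, lay below the lower quartile of the arrays, at 1.63 ± 0.25 and 1.46 ± 0.19.

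MPK4 (AT4G01370), which limits immune responses and acts in cytokinesis, was among the steady members. It measured 8.21, 8.11, 8.28, 8.30 and 8.46 in the wild-type arrays and 8.19, 8.29, 8.17, 8.18 and 8.42 in the mcu123 arrays, and the groups overlapped throughout. The difference was -0.02 on the log2 scale (95% interval -0.25 to 0.21). Its close relative MPK11 and the lateral root kinase MPK13 lay below the lower quartile of the arrays in both genotypes, with differences of -0.15 and -0.07. MPK12, known from guard cells, measured 4.10 in both genotypes.

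Group C, the MPKs below MKK3, had lower means in 4 of 4 members. MPK14 (AT4G36450) measured 3.95, 4.04, 3.25, 3.77 and 3.27 in the wild type and 2.79, 3.03, 3.49, 3.78 and 3.42 in mcu123. The groups overlapped, with mcu123 replicates 1 and 2 below every wild-type array. The log2 difference of -0.36 (SE 0.21, limma adjusted p = 0.77) was -0.23 without mcu123 replicate 1. MPK1, MPK2 and MPK7 had log2 differences of -0.14, -0.01 and -0.15.

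Group D, the largest subgroup of MAP kinases, had 8 members with a median wild-type SD of 0.11, where it was 0.22 over all genes. The widest was MPK18, at 0.23. In mcu123 the median SD was 0.17 for the group and 0.24 over all genes. The wild-type means of the group ran from 6.81 to 9.56, above the array median of 4.30, and genes of like brightness were not compared. MPK18 (AT1G53510), known for its part in microtubule organisation, measured 8.47, 9.01, 8.58, 8.76 and 8.94 in the wild-type arrays and 8.51, 8.29, 8.95, 8.54 and 8.41 in the mcu123 arrays. MPK19 (AT3G14720) measured 7.41, 7.36, 7.54, 7.47 and 7.66 in the wild-type arrays and 7.12, 7.05, 7.63, 7.31 and 7.37 in the mcu123 arrays. In both genes mcu123 replicate 3 lay with the upper wild-type arrays and mcu123 replicate 2 was the lowest array. Their log2 differences were -0.21 (SE 0.15) and -0.19 (SE 0.13), and the other members of the group ranged from -0.14 to 0.05. MPK8 (AT1G18150), which binds calmodulin and answers to calcium after wounding, had -0.02 (95% interval -0.26 to 0.22).

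**Figure D3:**
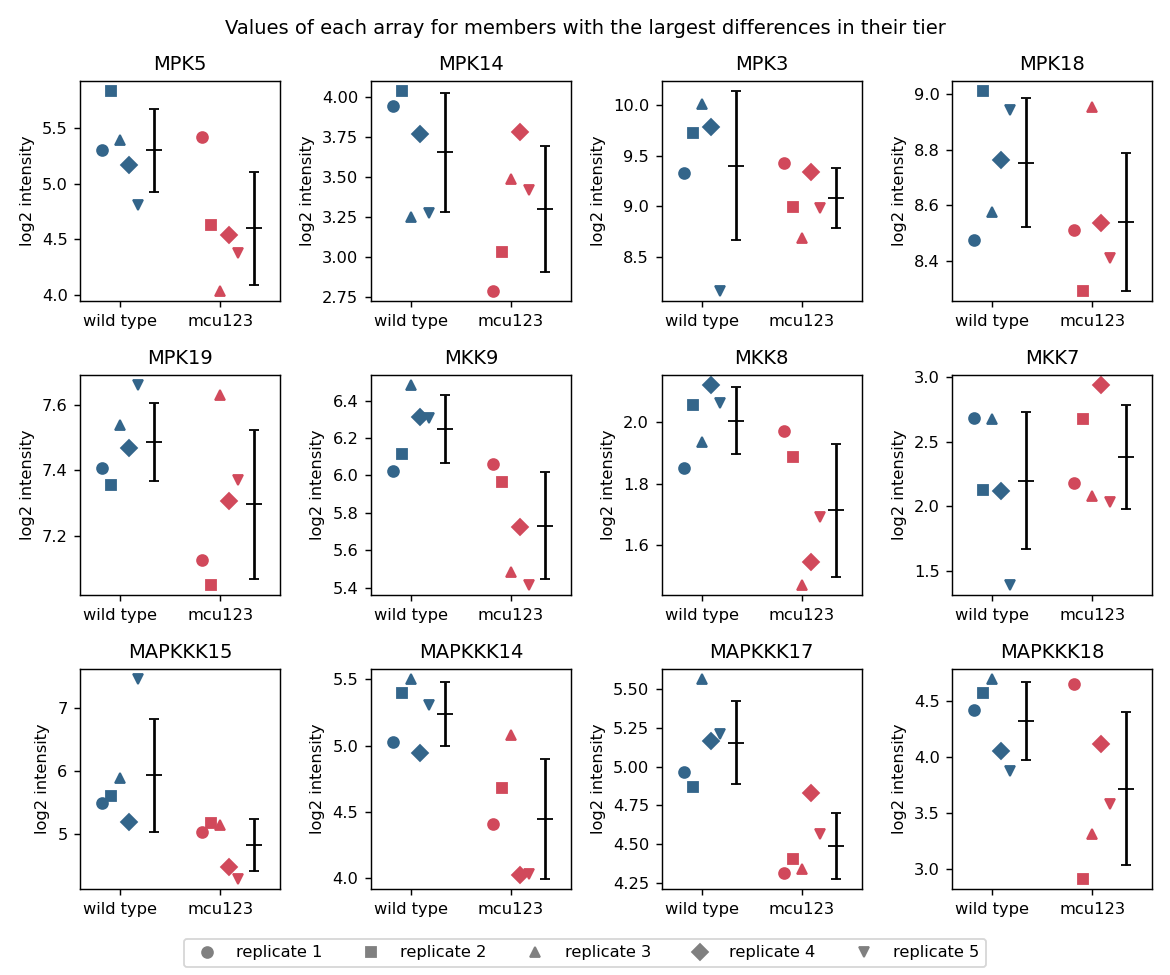
Log2 intensity (vertical axes, a separate scale in each panel) of the 12 members with the largest differences in their tier, in wild type and mcu123. Symbols mark replicates 1 to 5 and black bars the mean ± SD; the groups do not overlap in MAPKKK15 and MAPKKK17 and overlap in the other panels.

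The log2 differences are set out here along 3 known chains, whose steps hold unequal numbers of genes and are not ranked. In the chain with MKK3, the MAPKKK14 to MAPKKK21 clade ran from -1.10 to 0.01, with the abscisic acid-linked MAPKKK17 and MAPKKK18 at -0.67 and -0.61. Below them MKK3 had 0.13, and the 4 MPKs of group C had -0.36 to -0.01. In the chain with MEKK1, MEKK1 had -0.28, MKK1 and MKK2 had 0.15 and -0.18, and MPK4 had -0.02. For MPK3 and MPK6, no MAPKKK of their chain is among the members. Of the other MAPKKKs taken up below, MAPKKK3, MAPKKK5 and YDA had -0.15, -0.03 and -0.07. Their MKK9 had -0.52, MKK4 and MKK5 had 0.09 and -0.03, and the MPKs had -0.32 and 0.05. In 12 members, MKK1 and MPK4 among them, the sign of the difference turned when 1 array was left out. The differences between steps of a chain were not tested.

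Other genes of the pathway were taken from 6 lists with 74 genes, none of them a member. Of the 74, 0 passed limma's test over all genes, and 11 had an unadjusted p under 0.05. That level was reached by 7.46% of all genes, and 1.70% of all genes had no overlap between the genotypes. The same shares stand beside each list below. The lists were chosen with earlier results known, so nothing is read from their counts. Of 13 other MAPKKKs, 12 had the lower mean in mcu123 with a median log2 difference of -0.12, and 1 reached an unadjusted p under 0.05. The smallest p-values there were those of MAP3KE1 (-0.37, limma adjusted p = 0.59) and of EDR1 (-0.25, limma adjusted p = 0.74), a kinase that restrains defence. YDA, which controls stomatal patterning, and ANP3, which acts in cytokinesis, had -0.07 and -0.03.

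Phosphatases that switch MAP kinases off split in direction, with 6 of 10 means lower, a median of -0.06 and 1 gene at an unadjusted p under 0.05. DSPTP1, with a log2 difference of 0.31 (limma adjusted p = 0.56), was the gene of smallest p, followed by AP2C1 (AT2G30020), a phosphatase of MPK4 and MPK6 induced by wounding. AP2C1 measured 7.88, 8.36, 9.01, 7.71 and 7.41 in the wild-type arrays and 7.78, 7.84, 6.94, 7.75 and 6.95 in the mcu123 arrays, a log2 difference of -0.62 (SE 0.29, limma adjusted p = 0.69). AP2C1 is a near neighbor of MAPKKK14 in the reference. In both genes wild type replicate 3 was the highest array, but mcu123 replicate 3 was the highest mcu123 array for MAPKKK14 and the lowest for AP2C1.

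Of the substrates of MPK3, MPK4 and MPK6, 11 of 19 had the lower mean, with a median of -0.04, and 3 reached an unadjusted p under 0.05. The nitrate reductase NIA2 was higher in every mcu123 array than in any wild-type array, with a log2 difference of 0.54 (SE 0.17, limma adjusted p = 0.46). The transcription factor ERF6 had -0.77 (SE 0.26, limma adjusted p = 0.49). WRKY33, the substrate of MPK3 and MPK6 that drives camalexin synthesis, measured 10.67, 11.52, 10.98, 10.89 and 8.92 in the wild-type arrays and 10.65, 9.92, 9.69, 10.37 and 10.12 in the mcu123 arrays. As for MPK3, wild type replicate 5 was its lowest array and mcu123 replicate 3 the lowest of its genotype.

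Of the receptors and adaptors above the cascade, 9 of 14 had the lower mean, with a median of -0.15, and 2 reached an unadjusted p under 0.05. PEPR1, a receptor of the endogenous Pep danger peptides, measured 7.29, 7.14, 7.65, 7.04 and 6.84 in the wild-type arrays and 6.33, 6.28, 6.31, 6.79 and 6.23 in the mcu123 arrays. All mcu123 arrays lay below all wild-type arrays, and the log2 difference was -0.80 (SE 0.16, limma adjusted p = 0.15). ER, a receptor kinase of growth and stomatal patterning, had 0.60 (SE 0.20, limma adjusted p = 0.50). The flagellin receptor FLS2 was dim, and the co-receptor BAK1 had -0.14.

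The genes used as readouts of immune MAP kinase signaling had the lowest median of the 6 lists, -0.63, with 8 of 9 means lower and 3 at an unadjusted p under 0.05. NHL10 had -1.08 (SE 0.24, limma adjusted p = 0.20) with no overlap between genotypes, and PROPEP3, which encodes a Pep precursor, had -1.23 (SE 0.42, limma adjusted p = 0.51). FRK1 and PAD3 lay at the bottom of the scale, with differences of 0.05 and -0.02. WRKY29 measured 8.24, 8.56, 7.69, 7.83 and 10.26 in the wild-type arrays and 7.46, 6.99, 9.23, 6.56 and 6.62 in the mcu123 arrays, and WRKY22 had the same arrays, wild type replicate 5 and mcu123 replicate 3, on top. MAPKKK15 was likewise highest in wild type replicate 5, but mcu123 replicate 3 did not stand out in it.

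The abscisic acid outputs gave a median of -0.03, with 5 of 9 means lower and 1 gene at an unadjusted p under 0.05. HAI3, a phosphatase of abscisic acid signaling, had 0.47 (SE 0.13, limma adjusted p = 0.34) at a low level, and its relative HAI1 had -0.70 (SE 0.34). RAB18 and RD29B, which abscisic acid induces, had 0.04 and -0.32. These outputs had no common direction, and their relation to the lower means of MAPKKK17 and MAPKKK18 was not tested.

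**Figure D4:**
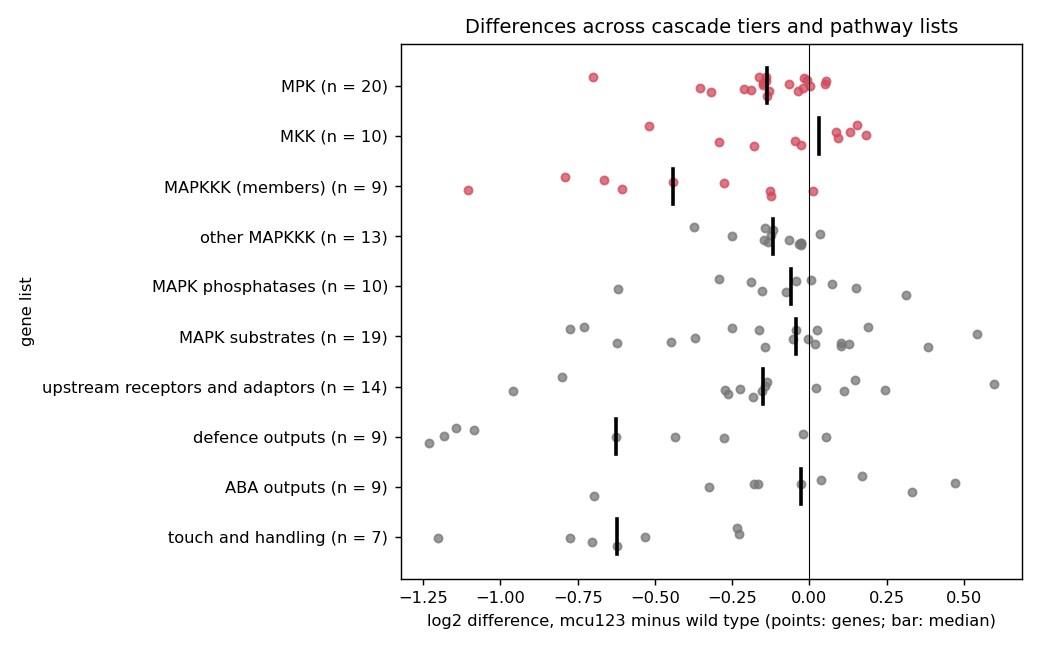
Log2 difference (mcu123 minus wild type, horizontal axis) of each gene in the 3 tiers and 7 other lists (vertical axis, number of genes in brackets), with black bars at the medians. The MAPKKK tier (-0.44), the defence outputs (-0.63) and the touch and handling genes (-0.62) have medians well below 0, and the medians of the other lists lie between -0.15 and 0.03.

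Genes that react within minutes to touch or handling are given here beside the cascade. All 7 had lower means in mcu123, with a median log2 difference of -0.62. None passed limma's test over all genes, and 3 had an unadjusted p under 0.05, a level that 7.46% of all genes reached. ZAT12, a zinc finger factor of rapid stress responses, was the gene of smallest p, with a log2 difference of -1.20 (SE 0.31, limma adjusted p = 0.30), followed by ERF6. ERF6 and ZAT10 of this list are also among the substrates. The mean level of the 7 genes per array ran from 6.61 to 8.27 in the wild type and from 6.54 to 7.32 in mcu123. Wild type replicate 3 was the highest wild-type array in 5 of the 7 and wild type replicate 5 the lowest in 6, as in MPK3 and MAPKKK19. MAPKKK15 was instead highest in wild type replicate 5. Among the mcu123 arrays, replicate 4 was the highest in 5 of the 7 and replicate 5 the lowest in 4. MPK3 and MAPKKK19 were highest in mcu123 replicate 1, and lowest in mcu123 replicates 3 and 5 respectively. The part of handling in the differences of the cascade was not tested.

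Markers of cell types were also read beside the cascade. The mean level of 4 endodermal genes ran from 6.86 to 7.19 in the wild type and from 6.66 to 6.91 in mcu123, with CASP4 at -0.43 (limma adjusted p = 0.30). The median log2 difference was -0.17 for endodermis, with 4 of 4 means lower, -0.40 for phloem, -0.18 for xylem, -0.05 for photosynthetic shoot and 0.00 for root hair. The phloem list held only 2 genes of opposite direction. SUC2 had -0.85 with mcu123 replicate 3 lowest at 3.23, and APL had 0.04. None of the 16 markers passed limma's test over all genes, and 2 reached an unadjusted p under 0.05, as 7.46% of all genes did. The part of cell types in the differences of the cascade was not tested.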

How the data were processed

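The authors deposited log2 intensities, and RMA made them, per the submitters' processing notes. Not given in the sources used here were the array model, probe grouping, software version, genome build, detection calls, scan dates and how far probes tell close relatives apart. The sorted values of the 10 arrays were identical, so a shift shared by all genes cannot be read. Locus codes were named through the RefSeq table of TAIR10.1.

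The comparison used limma 3.58.1 under R 4.3.3 (lmFit and eBayes, genotype only, two-sided). Benjamini-Hochberg adjustment ran across the 27826 rows, with no filter on dim rows, and 95% intervals from the moderated fit. The number of arrays limits the precision.

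Members and lists were chosen with earlier results of these data known. Array values are given for the members of largest absolute difference in each tier (5 MPK, 3 MKK, 4 MAPKKK) and for MPK3, MPK4, MPK6 and MEKK1; each pathway list is represented by its called genes or the 2 of smallest p. Other list and marker genes named, and MAPKKK19, were chosen after their values were seen. Same-numbered replicates did not deviate together, so numbers were not treated as pairs.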

Additional observations from a re-analysis of the deposited data

Results flagged for a closer look

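Of 90 sets of 5 arrays examined (39 members, 3 tier means and 3 targeted genes in each genotype), 3 held an array far from the other 4, where chance gives about 4.5. Expressed as a fraction of the range, the gap to its nearest neighbor was 0.8365 for MPK1 in mcu123, where replicate 2 measured 5.18 and the others at least 5.40. It was 0.7921 for MPK2 in the wild type, where replicate 2 measured 5.66 and the others at least 6.17. It was 0.7338 for MPK12 in mcu123, where replicate 3 measured 4.31 and the others at most 4.10.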

How the results depend on the processing

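The count of 0 called members and of 0 called genes in the 6 pathway lists held in every alternative: dropping the dimmest 30% of rows (which kept 31 of the 39 members), cyclic loess, centring on the brightest 10% of rows, array weights, a trended and robust prior, the replicate block, a test against a log2 change of 0.5, leaving out the 3 arrays of lowest weight, and leaving out each array in turn. The count over all genes, 12, was 7 without the dimmest rows, 7 with the centring, 35 with the trended and robust prior, 30 with array weights, 3 against a log2 change of 0.5, 3 without the 3 arrays of lowest weight, 8 with the replicate block and 5 to 22 with each array left out. Some of these settings hold fewer rows or arrays, and the cause was otherwise not tested. The MAPKKK median of -0.44 was -0.16 without the 3 arrays of lowest weight (wild type replicate 2 and mcu123 replicates 2 and 3) and -0.65 to -0.29 with each array left out, the ends being without wild type replicates 5 and 3. The MKK median of 0.03 was -0.085 without those 3 arrays and -0.0495 to 0.0823 with each left out. The MPK median stayed between -0.15 and -0.10 with each array left out. Same-numbered replicates correlated at -0.21 to 0.09 in their deviations from the group means, and 0 of the 10 arrays correlated best with its own number, so the replicate block describes no known pairing. Of the called genes only MCU1 and MCU3 were followed across the alternatives, and both kept the lower mean in mcu123. Dim members such as MPK10, MPK11, MPK13, MKK8, MKK10 and MAPKKK20 lay below the lower quartile of the arrays, where no detection call separates a level from background.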
